A study of Mus musculus with 3 samples.

Results

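The mouse genes for the replication-dependent histones were followed through naive, central memory and effector memory CD8+ T cells. They were taken as every row of the deposited gene count table whose symbol starts with Hist1h, Hist2h, Hist3h or Hist4h, which gave 67 of 25638 genes. By class these are 6 genes for the linker histone H1, 18 for H2A, 18 for H2B, 12 for H3 and 13 for H4. By location 54 belong to the Hist1 cluster on chromosome 13, 10 to Hist2 on chromosome 3, 2 to Hist3 on chromosome 11 and 1 to Hist4 on chromosome 6.

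The RNA came from CD8+ T cells of the spleens of untreated wild-type mice, with 1 library each for effector memory, central memory and naive cells. The mouse strain, age and number of animals, and the surface markers used to sort the cells, were not given in the sources used here. Total RNA extracted with Trizol was made into libraries with the TruSeq RNA Sample Prep Kit and sequenced on an Illumina NovaSeq. The libraries held 33087462 counts for effector memory, 35846315 for central memory and 26876909 for naive cells.

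Replication-dependent histone genes supply the proteins that package newly copied DNA, and their mRNAs accumulate in S phase and are degraded when DNA synthesis ends. Most are short genes without introns whose mRNAs end in a conserved stem-loop, bound by the stem-loop binding protein SLBP, in place of a poly(A) tail. Some of these genes also give polyadenylated mRNAs that run past the stem-loop, which have been described in differentiated cells. The kit named in the labels selects polyadenylated RNA in its standard protocol, and the labels do not state whether that step was used. The values below therefore measure what such a library captured, and cannot be read as the full amount of histone mRNA.

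The sequence that sets these genes apart is the stem-loop itself, shown for the member with the most counts in each class of the effector memory library, and for Hist3h2ba, whose level pattern was different. Of the 67 genes, 63 have a single exon in the GENCODE M21 annotation, and 46 hold a 16-base stem-loop that starts 21 to 58 bases past the stop codon. The same motif is found in 102 of 58725 other coding transcripts, or 0.174%. Each line gives 26 bases of the GENCODE M21 transcript, 5′ to 3′ on the gene's strand in DNA letters, with the stem-loop in capitals and the GRCm38 position after the name. The capitals are the same in the H1, H2A and H2B examples, the H3 example has another base in the loop, and the H4 example has another stem as well.
Hist1h1c, plus strand, chr13:23739507-23739532: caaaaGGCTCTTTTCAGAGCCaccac
Hist1h2ae, minus strand, chr13:23570663-23570688: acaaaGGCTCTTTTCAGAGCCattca
Hist1h2bj, plus strand, chr13:22043633-22043658: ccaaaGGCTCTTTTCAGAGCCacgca
Hist3h2ba, plus strand, chr11:58949344-58949369: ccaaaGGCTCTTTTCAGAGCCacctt
Hist1h3c, minus strand, chr13:23745042-23745067: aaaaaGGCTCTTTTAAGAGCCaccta
Hist1h4i, minus strand, chr13:22040961-22040986: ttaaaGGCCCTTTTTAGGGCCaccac

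The 46 stem-loops came in 8 versions. The version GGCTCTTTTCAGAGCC was held by 26 genes, 3 of them for H1, 10 for H2A, 8 for H2B and 5 for H3, and by no H4 gene. The version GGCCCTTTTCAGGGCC was held by 7 genes, all of them for H4. No stem-loop was found in the annotated transcripts of 21 genes, and 17 of these have models that end under 60 bases past the stop codon. For these 17 genes a model without the motif therefore says little about the real transcript. The rest, Hist2h2be, Hist1h2bc, Hist1h2br and Hist1h2bq, have models of 742 to 2192 bases past the stop codon without a match.

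The histone genes as a group were highest in effector memory cells and lowest in central memory cells. Their summed level was 365.2 CPM in effector memory, 30.5 CPM in central memory and 64.7 CPM in naive cells. CPM are counts per 1000000 counts of library size, scaled by the trimmed mean of M values (TMM). The summed level in effector memory was 5.64 times that of naive cells, with a 95% exact (Clopper-Pearson) counting interval of 5.37 to 5.93, and 11.98 times that of central memory cells (interval 11.3 to 12.8). In central memory it was 2.12-fold lower than in naive cells (interval 1.97 to 2.29).

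With 1 library per group there is no replicate check, so no p-value is given, and the intervals cover counting error only. In bulk RNA, fewer cells with a transcript and less transcript per cell cannot be told apart. Histone genes took 0.0353% of the counts in effector memory, 0.00305% in central memory and 0.00670% in naive cells. A histone gene with 0 counts in a library could still have had up to 3 counts, which is 0.0938 CPM in effector memory, 0.0837 CPM in central memory and 0.108 CPM in naive cells.

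Counts of 1 to 10 were even more often than odd over the whole table, at 67.3% of genes in effector memory, 69.1% in central memory and 69.0% in naive cells. For the histone genes with 1 to 10 counts, 1 of 2 was even in effector memory, 23 of 26 in central memory and 13 of 16 in naive cells. Why even values prevail is not given in the sources used here, and a counting interval is too narrow wherever 2 counts stand for 1 molecule. The counts of called histone genes were therefore also taken with all counts halved, a choice made after seeing the data. This was not done for the other gene lists, and the share called over all genes was not taken with halved counts.

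A gene was called when its ratio was at least 2, its interval excluded 1 and its level was at least 5 CPM in the higher library. That level is 159.9 counts in effector memory, 179.1 in central memory and 139.1 in naive cells. Of the 67 histone genes, 29 reached it in at least 1 library, 35 had counts but stayed below it, and 3 were at 0 in all libraries. The 3 at 0 were Hist1h1t, Hist1h2aa and Hist1h2ba, known as testis-specific genes. The minimum was reached by 29 genes in effector memory, 1 in central memory and 2 in naive cells, so that most genes reached it only where they were high. Just above it lay Hist1h2bc at 5.25 CPM and Hist1h2bk at 5.38 CPM in effector memory, and just below it Hist1h3g at 4.94 CPM and Hist1h2ai at 4.78 CPM.

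In effector memory against naive cells, 27 histone genes were called higher, beside 22.3% of all 10087 genes at that level. Hist2h2be alone was called lower, beside 15.6% of all genes. Hist1h1c was the single member at that level called in neither direction. Without a minimum level, 53 of the 64 histone genes with a count were higher, beside 22.5% of all 15870 genes with a count, and 1 was lower, beside 16.4%. The median log2 ratio of the histone genes was 3.80 over the 63 for which a ratio could be given, beside 0.09 over all genes. Genes at 0 in naive cells entered that median at the ratio to 3 counts.

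In effector memory against central memory cells, 28 histone genes were called higher, beside 14.8% of all 9975 genes, and Hist2h2be alone was lower, beside 12.8%. Without a minimum level 56 were higher, beside 18% of all 15698 genes, and 1 was lower, beside 12.6%. With halved counts the count of higher genes was 55, without Hist2h2aa1. The median log2 ratio was 4.12 for the histone genes and 0.00 over all genes.

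In central memory against naive cells, a comparison that uses the same naive library, only Hist1h1c and Hist2h2be reached 5 CPM. Neither was called higher, beside 11.2% of all 9737 genes, and Hist1h1c was called lower, beside 5.12%. Without a minimum level 5 histone genes were higher, beside 13% of all 15519 genes, and 16 were lower, beside 9.92%. With halved counts 2 were higher and 12 were lower, without a share over all genes to set beside them. The histone level was below that of naive cells for 29 genes and above it for 24, and 11 of those with a count elsewhere were at 0 in both libraries. The median log2 ratio over the 45 genes with a ratio was -0.85, beside 0.10 over all genes.

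**Figure D1:**
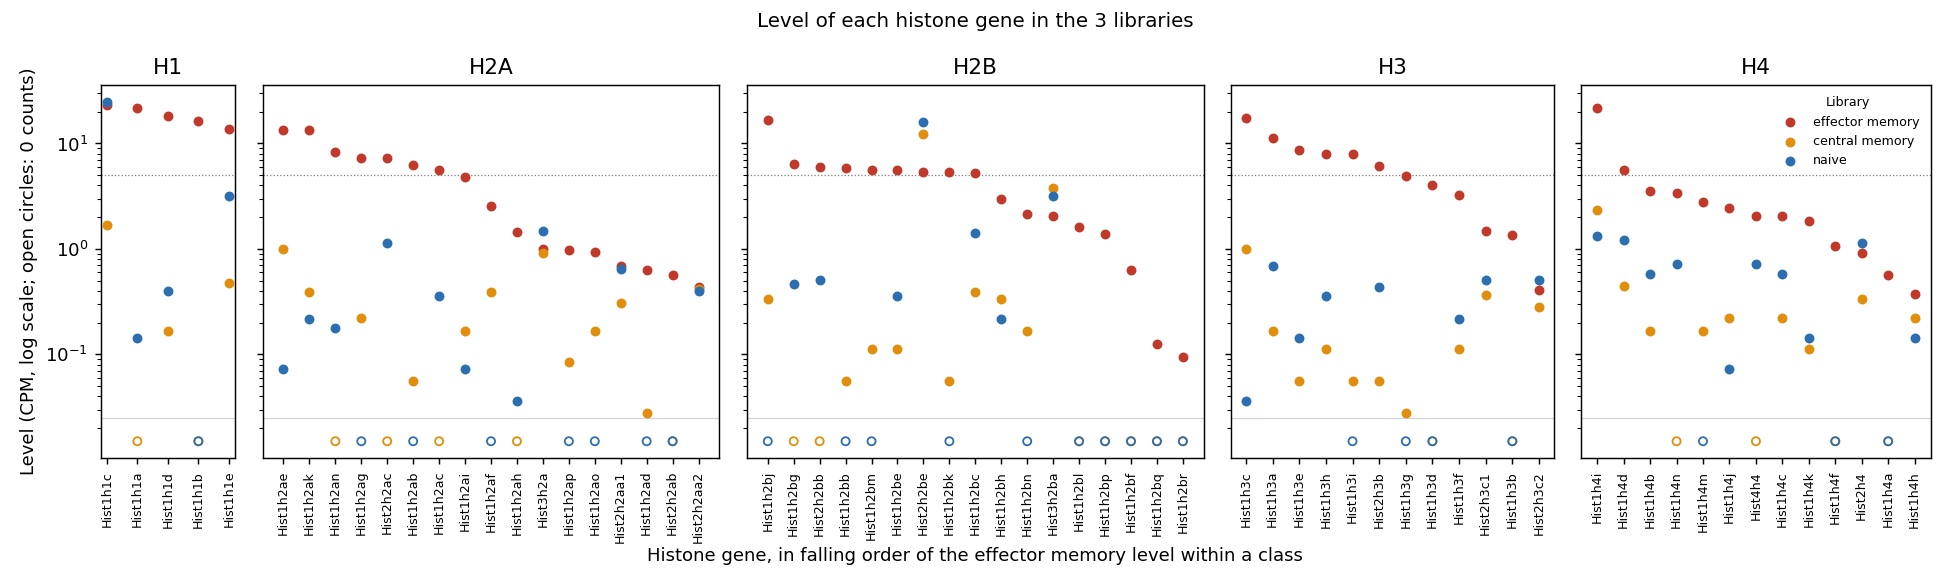
Level of each histone gene with a count, in CPM on a log axis, by class, with red points for effector memory, orange for central memory and blue for naive cells. Open circles mark 0 counts and the dotted line marks 5 CPM; of the 64 genes, 58 were highest in effector memory, 1 in central memory and 5 in naive cells.

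The classes differed in how far they were apart between the libraries. Summed H3 genes had 74.8 CPM in effector memory, 2.23 CPM in central memory and 2.88 CPM in naive cells, and summed H2A genes 75.8, 4.16 and 4.60 CPM in the same order. The ratio of effector memory to naive cells was 26.03 for H3 (interval 20.8 to 32.9) and 16.5 for H2A (interval 13.8 to 19.8). For H4 the levels were 48.4 CPM in effector memory, 4.24 CPM in central memory and 6.65 CPM in naive cells, a ratio to naive cells of 7.28 (interval 6.25 to 8.53). In these 3 classes the level outside effector memory was thus at most 6.65 CPM.

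H1 and H2B kept more of their level in naive cells. H1 genes summed to 92.9 CPM in effector memory, 2.32 CPM in central memory and 28.5 CPM in naive cells, and H2B genes to 73.2, 17.5 and 22.1 CPM in the same order. The ratio of effector memory to naive cells was 3.26 for H1 (interval 3.01 to 3.53) and 3.31 for H2B (interval 3.03 to 3.63). In central memory against naive cells H1 was 12.3-fold lower (interval 9.80 to 15.6), H4 1.57-fold lower (interval 1.26 to 1.95) and H2B 1.26-fold lower (interval 1.13 to 1.41). For H2A and H3 the interval of that ratio included 1.

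In both classes 1 gene, left out here after its values were seen, set these ratios. Without Hist1h1c the H1 genes had 69.98 CPM in effector memory, 0.642 CPM in central memory and 3.70 CPM in naive cells. The ratio to naive cells was then 18.9 in effector memory (interval 15.5 to 23.3), and the level in central memory was 5.77-fold lower than in naive cells (interval 3.64 to 9.50). Without Hist2h2be the H2B genes had 67.8 CPM in effector memory, 5.36 CPM in central memory and 6.11 CPM in naive cells, a ratio of effector memory to naive cells of 11.1 (interval 9.49 to 13.0).

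The make-up of the histone counts, not divided by gene length, differed accordingly. In effector memory the shares were 25.4% for H1, 20.8% for H2A, 20.05% for H2B, 20.5% for H3 and 13.3% for H4. H2B genes held 57.5% of the histone counts in central memory (exact interval 54.5 to 60.5%) and 34.1% in naive cells (interval 32.0 to 36.4%). H1 genes held 7.60% in central memory (interval 6.10 to 9.34%) and 44.03% in naive cells (interval 41.7 to 46.4%). A single gene accounted for most of each of these last shares, as described for its class below.

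**Figure D2:**
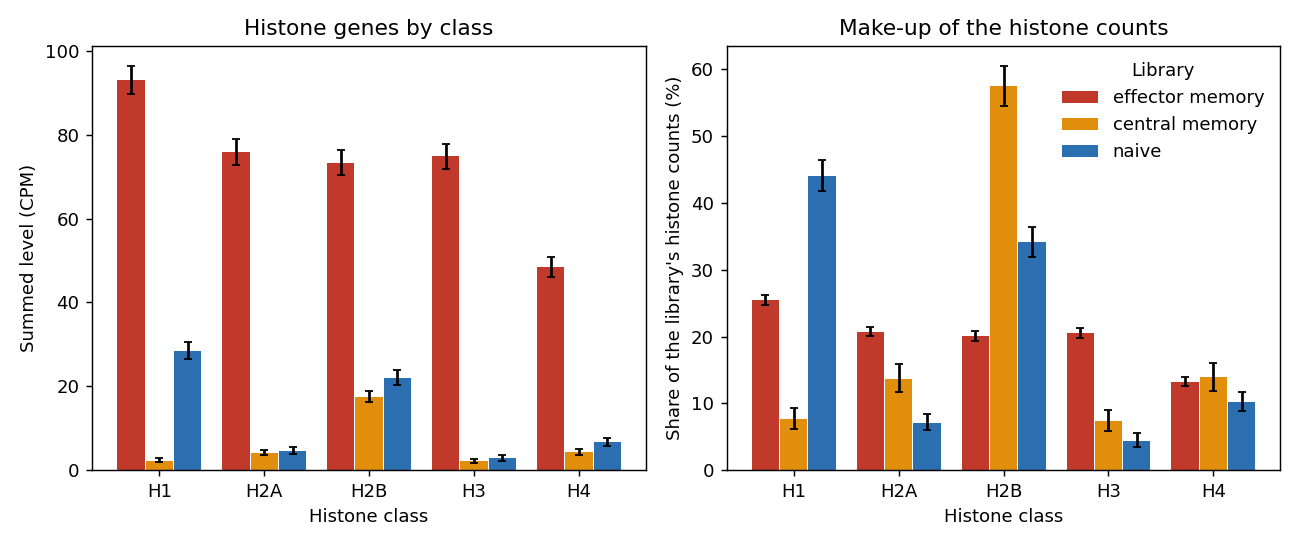
Summed level in CPM (left) and share of the library's histone counts in percent (right) for the 5 histone classes in effector memory (red), central memory (orange) and naive cells (blue), with 95% exact counting intervals. Effector memory has the tallest bar in every class on the left, while H2B in central memory (57.5%) and H1 in naive cells (44.03%) stand out on the right.

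Linker histones of the H1 class bind DNA where it enters and leaves the nucleosome. Hist1h1c had 734 counts in effector memory, 60 in central memory and 690 in naive cells. Its level in effector memory was thus about that of naive cells, with a ratio of 0.926 (interval 0.833 to 1.03), and it made up 87.0% of the H1 counts of naive cells. Its level in central memory was 14.8-fold lower than in naive cells (interval 11.4 to 19.6). Hist1h1c (GRCm38 chr13:23738808-23740367, plus strand, 1 exon) has 880 annotated bases past its stop codon.

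The other H1 genes of the cluster were close to absent outside effector memory, apart from Hist1h1e. Hist1h1a had 697 counts in effector memory, 0 in central memory and 4 in naive cells, a ratio to naive cells of 151.6 (interval 59.0 to 558). Hist1h1b had 521 counts in effector memory and 0 in both other libraries. Set against 3 counts per library, it was 151-fold higher than in naive cells and 195-fold higher than in central memory. Hist1h1d had 585 counts in effector memory, 6 in central memory and 11 in naive cells, a ratio to naive cells of 46.3 (interval 25.7 to 93.2). Hist1h1e lay between the patterns, with 435 counts in effector memory, 17 in central memory and 88 in naive cells, and its ratio to naive cells was 4.30 (interval 3.41 to 5.47). Hist1h1e shares exon bases with Hist1h2be in the annotation, so the counting of their reads is uncertain.

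The shares within the class showed the same contrast. In effector memory Hist1h1c gave 24.7% of the H1 counts and Hist1h1a 23.5%. In central memory Hist1h1c gave 72.3% of only 83 H1 counts (exact interval 61.4 to 81.6%). Levels per kilobase of annotated exon in effector memory were 29.4 CPM for Hist1h1a, 21.9 CPM for Hist1h1b and 14.7 CPM for Hist1h1c. This order depends on the gene models, which hold 880 bases past the stop codon for Hist1h1c, 48 for Hist1h1a and 0 for Hist1h1b. It therefore does not settle which H1 gene was highest there. In naive cells Hist1h1c had 15.9 CPM per kilobase and Hist1h1a 0.194 CPM per kilobase.

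H1f0 encodes the linker histone H1.0, which lies outside the clusters, is made independently of replication and has a polyadenylated mRNA. It had 237.6 CPM in effector memory, 17.3 CPM in central memory and 3.09 CPM in naive cells. It was therefore 76.9 times as high in effector memory as in naive cells (interval 62.2 to 96.2), and 5.61 times as high in central memory as in naive cells (interval 4.47 to 7.11). The order of its levels in central memory and naive cells was the reverse of that of Hist1h1c.

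**Figure D3:**
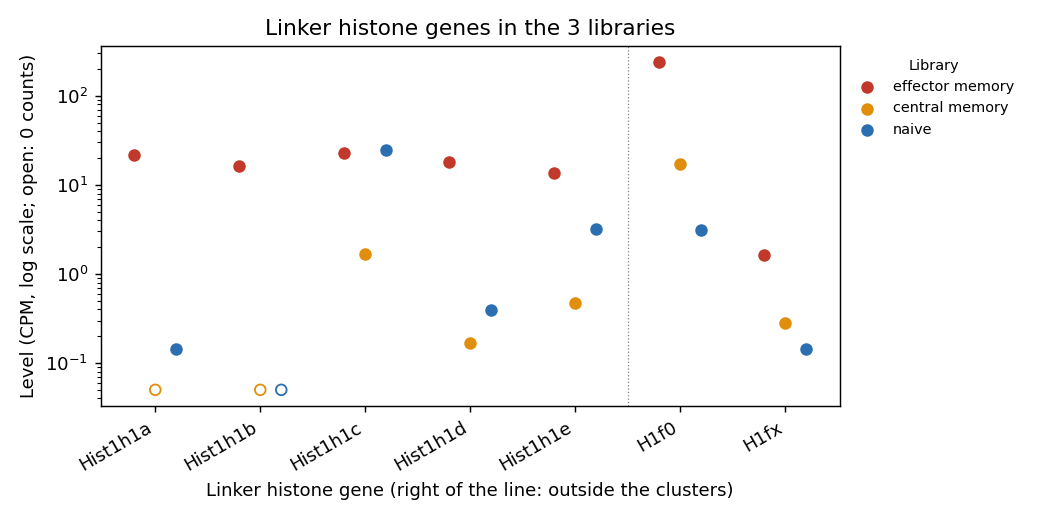
Level in CPM, on a log axis, of 5 clustered H1 genes and of H1f0 and H1fx in effector memory (red), central memory (orange) and naive cells (blue), with open circles for 0 counts. Hist1h1c is near 23 CPM in effector memory and 24.8 CPM in naive cells, while H1f0 is at 237.6 CPM in effector memory, 17.3 CPM in central memory and 3.09 CPM in naive cells.

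H2A pairs with H2B in the nucleosome. Hist1h2ae had 434 counts in effector memory, 36 in central memory and 2 in naive cells. Its ratio to naive cells rested on those 2 counts and was 189 in effector memory (interval 52.0 to 1564) and 14.0 in central memory (interval 3.60 to 119.9). Hist1h2ae (chr13:23570517-23571220, minus strand, 1 exon) was thus low in both other libraries but not lowest in central memory.

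Hist1h2ak had 432 counts in effector memory, 14 in central memory and 6 in naive cells, and was 62.6 times as high in effector memory as in naive cells (interval 28.6 to 171.7). Hist1h2an had 268 counts in effector memory, 0 in central memory and 5 in naive cells, a ratio to naive cells of 46.6 (interval 19.7 to 144.8). Hist1h2ag had 232 counts in effector memory, 8 in central memory and 0 in naive cells. Set against 3 counts in naive cells, it was 67.3-fold higher in effector memory. All 3 were near 0 outside effector memory. Of the 100-base windows, 83.3% for Hist1h2an and 76.2% for Hist1h2ag also occur in another gene, so their reads may be split among copies.

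In the Hist2 cluster Hist2h2ac had 231 counts in effector memory, 0 in central memory and 32 in naive cells, and was 6.28 times as high in effector memory as in naive cells (interval 4.33 to 9.40). Hist3h2a had 32 counts in effector memory, 33 in central memory and 41 in naive cells, and the intervals of its ratios included 1 in all 3 comparisons. It was the H2A gene with the most counts in naive cells, holding 32.0% of the class there (exact interval 24.1 to 40.9%). Without a minimum level, 14 of 17 H2A genes with a count were higher in effector memory than in naive cells. Over all genes that share was 22.5%, and none of the class was lower, beside 16.4%.

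Among H2B genes, Hist1h2bj (chr13:22043214-22043676, plus strand) had 535 counts in effector memory, 12 in central memory and 0 in naive cells. Its level in effector memory was 155-fold higher when set against 3 counts in naive cells (lower limit of the exact interval 125.8). The gene was 49.9 times as high in effector memory as in central memory (interval 28.4 to 97.3). Per kilobase of annotated exon it was the highest histone gene of the effector memory library, at 36.1 CPM, an order that depends on the gene models. Hist1h2bg had 203 counts in effector memory, 0 in central memory and 13 in naive cells, a ratio to naive cells of 13.6 (interval 7.77 to 25.96). Hist2h2bb had 192 counts in effector memory, 0 in central memory and 14 in naive cells, a ratio to naive cells of 11.9 (interval 6.94 to 22.2). Of its 100-base windows 100% also occur in another gene, and its exon overlaps Gm20628 and Gm42743. Over all 67 histone genes, 29 share 50% or more of their windows with another gene, either a copy or a gene model that overlaps theirs. Reads from such windows may have been counted for another gene or not at all.

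Hist2h2be (chr3:96221119-96223738, plus strand) went the other way, with 173 counts in effector memory, 436 in central memory and 445 in naive cells. It was 2.96-fold lower in effector memory than in naive cells (interval 2.47 to 3.55) and 2.25-fold lower than in central memory (interval 1.88 to 2.70). Between central memory and naive cells its ratio was 0.761 (interval 0.665 to 0.871). It held 69.4% of the H2B counts of central memory and 72.4% of those of naive cells. Its annotated transcript has 2192 bases past the stop codon, with no match to the stem-loop motif. None of its 100-base windows occurs in another gene.

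Hist3h2ba had 66 counts in effector memory, 136 in central memory and 88 in naive cells, and was the single histone gene highest in central memory. Its ratio to naive cells was 0.653 in effector memory (interval 0.467 to 0.908) and 1.20 in central memory (interval 0.911 to 1.59), neither of which reached 2-fold in either direction. Together, the 2 Hist3 genes had 3.06 CPM in effector memory, 4.72 CPM in central memory and 4.64 CPM in naive cells, whereas the Hist1 genes had 330.8, 11.8 and 38.1 CPM in the same order. Summed Hist2 genes had 29.2 CPM in effector memory, 13.9 CPM in central memory and 21.3 CPM in naive cells, of which Hist2h2be was the largest part in the last 2 libraries.

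H3 and H4 together form the tetramer at the centre of the nucleosome. Hist1h3c (chr13:23744973-23745602, minus strand) had 557 counts in effector memory, 36 in central memory and 1 in naive cells. Its ratio to naive cells rested on that 1 count, and was 485 in effector memory (interval 86.6 to 19176) and 28.0 in central memory (interval 4.71 to 1135). Hist1h3a had 360 counts in effector memory, 6 in central memory and 19 in naive cells, a ratio to naive cells of 16.5 (interval 10.4 to 27.7). The H3 genes thus differed in whether central memory or naive cells came lower.

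Hist1h3e had 276 counts in effector memory, 2 in central memory and 4 in naive cells, a ratio to naive cells of 60.04 (interval 23.2 to 221.9). Hist1h3h had 256 counts in effector memory, 4 in central memory and 10 in naive cells, a ratio to naive cells of 22.3 (interval 11.9 to 47.0). For Hist1h3h, 92.0% of the 100-base windows also occur in another gene. Without a minimum level, 11 of 12 H3 genes were higher in effector memory than in naive cells, beside 22.5% of all genes. The exception was Hist2h3c2, which had 13 counts in effector memory, 10 in central memory and 14 in naive cells.

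Among H4 genes Hist1h4i (chr13:22040636-22041362, minus strand) had the most counts in every library, with 697 counts in effector memory, 84 in central memory and 37 in naive cells. Its ratio to naive cells was 16.4 in effector memory (interval 11.8 to 23.5) and 1.76 in central memory (interval 1.18 to 2.67). It held 45.03% of the H4 counts in effector memory and 55.3% in central memory. Hist1h4d had 179 counts in effector memory, 16 in central memory and 34 in naive cells, a ratio to naive cells of 4.58 (interval 3.16 to 6.82).

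Hist1h4b had 113 counts in effector memory, 6 in central memory and 16 in naive cells, and Hist1h4n 108 counts in effector memory, 0 in central memory and 20 in naive cells. Neither reached 5 CPM, and their ratios of effector memory to naive cells were 6.14 (interval 3.62 to 11.1) for Hist1h4b and 4.70 (interval 2.90 to 7.996) for Hist1h4n. Hist2h4 had 29 counts in effector memory, 12 in central memory and 32 in naive cells, so that its effector memory level was not above that of naive cells. Without a minimum level, 11 of 13 H4 genes were higher in effector memory than in naive cells, beside 22.5% of all genes. Of the 11 with a count in central memory or naive cells, 6 were lower in central memory, beside 9.92%. None was higher, beside 13%, and with halved counts Hist1h4b and Hist1h4c lost the lower call.

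The 5 histone genes that were higher in central memory than in naive cells without a minimum level were Hist1h2ae, Hist1h2af, Hist1h2ag, Hist1h2bj and Hist1h3c. All of them had at most 36 counts in central memory and at most 2 in naive cells. With halved counts Hist1h2ae and Hist1h3c kept the call, and Hist1h2af, Hist1h2ag and Hist1h2bj lost it. Of the 16 lower genes, Hist1h2an, Hist2h3b, Hist1h4b and Hist1h4c lost the call with halved counts.

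The genes with high levels in naive cells were few. Of 1801 histone counts in naive cells, Hist1h1c had 690 and Hist2h2be had 445. Without these 2 genes the summed ratio of effector memory to naive cells was 14.1 and that of effector memory to central memory was 20.2. The ratio of central memory to naive cells was 0.695 without them, against 0.471 with all genes, and without Hist1h1c alone the log2 ratio was -0.47, against -1.09 with all genes. These 2 genes were picked after their values were seen.

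Summed over all classes, genes with a long annotated 3′ end and those with a short one differed in their values, though not in every class. The split was chosen after seeing the values and was placed at 150 bases past the stop codon, in the gap between the longest short model at 114 bases and the shortest long one at 154 bases. It gave 27 long and 40 short models. The 40 short models, most of which end close to the stem-loop or at the stop codon, summed to 209.1 CPM in effector memory, 5.05 CPM in central memory and 6.43 CPM in naive cells. The 27 long models summed to 156.1 CPM in effector memory, 25.4 CPM in central memory and 58.3 CPM in naive cells.

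The long models therefore held 42.7% of the histone counts in effector memory (exact interval 41.8 to 43.6%), against 83.4% in central memory (interval 81.1 to 85.6%) and 90.1% in naive cells (interval 88.6 to 91.4%). The ratio of effector memory to naive cells was 32.5 for the short models (interval 28.0 to 37.9) and 2.68 for the long ones (interval 2.53 to 2.83). For short and long models it was 264.9 and 1.93 in H1, 20.6 and 10.6 in H2A, 90.1 and 1.29 in H2B, and 37.8 and 13.05 in H3. The short H1 and H2B models had only 4 and 14 counts in naive cells. In H4 it was 8.23 (interval 6.02 to 11.5) and 6.99 (interval 5.86 to 8.38), so short and long H4 models were not separated. The ratio of central memory to naive cells was 0.785 for the short models (interval 0.635 to 0.971) and 0.436 for the long ones (interval 0.402 to 0.473). Counts in the table are per gene, so where along a transcript the reads fell is not known, and a longer model can also collect more reads. Hist1h1c and Hist2h2be are both long models, and without them the ratio of effector memory to naive cells for the long models was 7.30 (interval 6.64 to 8.03) and that of central memory to naive cells was 0.662 (interval 0.579 to 0.756). The last interval overlaps that of the short models, so without these 2 genes long and short models were not separated in that comparison. The part of 3′ end form in these values was not tested.

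**Figure D4:**
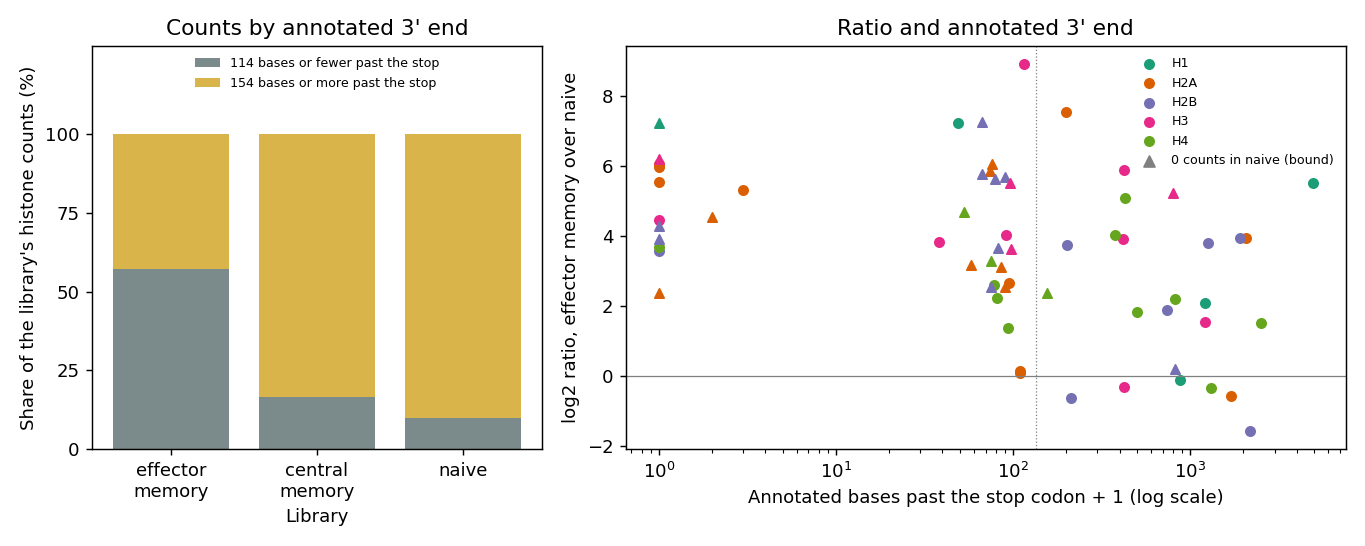
Left, share of the histone counts in percent from genes with short (grey) and long (yellow) annotated 3′ ends in each library. Right, log2 ratio of effector memory to naive cells for each gene against its annotated bases past the stop codon plus 1 on a log axis, coloured by class, with triangles for bounds; the 6 genes below 0 all lie right of the dotted line, which marks the split.

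H2A and H2B genes often stand back to back and share a promoter region. The annotation held 12 such pairs with 176 to 306 bases between the gene starts, and 11 had counts for both genes in effector memory. The H2A gene had the higher level per kilobase in 7 of these pairs and the H2B gene in 4. The 7 include Hist1h2ap with Hist1h2br and Hist1h2ao with Hist1h2bq, whose H2B genes had 3 and 4 counts in effector memory. Of the 100-base windows of these H2B genes, 99.8% and 100% also occur in another gene. Levels were divided by annotated exon bases, 2212 for Hist1h2br, 2015 for Hist1h2bq and 2620 for Hist2h2be, so the split also depends on gene models. For Hist1h2ae and Hist1h2bg the levels in effector memory were 19.3 and 10.3 CPM per kilobase, and for Hist1h2ag and Hist1h2bj they were 14.96 and 36.1 CPM per kilobase. Both members of these pairs were near 0 outside effector memory, with at most 36 counts.

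The pair Hist2h2ac and Hist2h2be, whose starts lie 239 bases apart, was split in its pattern. Hist2h2ac had 231 counts in effector memory, 0 in central memory and 32 in naive cells, whereas its partner Hist2h2be had 173, 436 and 445 counts in the same order. Their annotated 3′ ends differ too, with 94 bases past the stop codon for Hist2h2ac and 2192 for Hist2h2be.

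Promoters of 4 genes are shown because their genes show the contrasting level patterns of the H1 class and the effector memory pattern of the core histones. RefSeq promoters (GRCm38.p6, 250 bases before the gene start to 50 after) were matched for 61 of the 67 genes. The letters searched on both strands were CCAAT (the CCAAT box), then TATAAA (the TATA box), the octamer ATTTGCAT and the core of the H1 box, AAACACA. No match of one kind overlapped a match of another kind in these 61 windows. Matches on either strand are in capitals, and each sequence runs 5′ to 3′ on the strand of the named gene.
Hist1h1c, plus strand, chr13:23738557-23738856: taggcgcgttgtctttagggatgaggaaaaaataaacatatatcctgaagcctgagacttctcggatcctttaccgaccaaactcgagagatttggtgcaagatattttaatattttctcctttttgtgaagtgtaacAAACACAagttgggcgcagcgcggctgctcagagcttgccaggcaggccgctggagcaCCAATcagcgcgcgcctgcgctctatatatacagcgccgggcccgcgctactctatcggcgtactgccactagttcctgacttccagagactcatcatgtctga
Hist1h1a, plus strand, chr13:23763418-23763717: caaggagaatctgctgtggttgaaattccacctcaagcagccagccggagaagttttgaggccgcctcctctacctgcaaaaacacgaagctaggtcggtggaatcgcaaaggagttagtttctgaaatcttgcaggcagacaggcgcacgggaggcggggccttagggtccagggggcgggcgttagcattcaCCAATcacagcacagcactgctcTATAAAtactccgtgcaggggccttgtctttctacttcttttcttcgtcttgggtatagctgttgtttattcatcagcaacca
Hist1h2ae, minus strand, chr13:23571171-23571470: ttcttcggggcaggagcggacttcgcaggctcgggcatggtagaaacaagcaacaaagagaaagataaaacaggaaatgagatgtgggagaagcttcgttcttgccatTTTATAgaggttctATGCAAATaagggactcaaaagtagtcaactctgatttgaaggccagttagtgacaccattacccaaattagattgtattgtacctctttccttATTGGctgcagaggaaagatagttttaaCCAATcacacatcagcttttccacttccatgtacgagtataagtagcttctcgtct
Hist1h4i, minus strand, chr13:22041313-22041612: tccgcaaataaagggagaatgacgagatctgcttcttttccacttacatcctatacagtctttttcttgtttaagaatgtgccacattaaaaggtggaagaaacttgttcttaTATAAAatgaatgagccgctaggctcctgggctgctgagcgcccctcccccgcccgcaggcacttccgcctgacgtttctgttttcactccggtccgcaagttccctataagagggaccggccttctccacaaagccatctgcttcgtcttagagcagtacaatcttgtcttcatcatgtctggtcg

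The letters differed between the classes. CCAAT was present in 52 of 61 histone promoters, including all 6 of H1, 17 of H2A, 16 of H2B and 10 of H3, but 3 of 12 of H4, and in 37.9% of all 27025 promoters. TATAAA was present in 35 of 61, against 14.2% of all promoters. The octamer was present in 13 of 61, which were 7 H2A and 6 H2B promoters, against 1.75% of all promoters. AAACACA was present in 9 of 61, against 7.14% of all promoters. These were 5 of 6 H1 promoters, all but that of Hist1h1a, with 2 of H2A and 2 of H2B. Back-to-back pairs share part of their windows, so these counts are not independent, and a match is a description of the letters and not a binding site.

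Genes that act with the histone genes were counted from lists of known genes. Of 20 DNA replication genes, all 20 were called higher in effector memory than in naive cells, beside 22.3% of all genes. In central memory against naive cells 13 of 19 were called higher, beside 11.2%, and none was lower, beside 5.12%. Their median log2 ratios to naive cells were 3.02 in effector memory and 1.26 in central memory, beside 0.06 and 0.14 over all genes at 5 CPM. In effector memory against central memory 19 of 20 were higher, beside 14.8%. Rrm2, a subunit of ribonucleotide reductase, had 398.1 CPM in effector memory, 80.3 CPM in central memory and 1.01 CPM in naive cells. Cdc6, which loads the replicative helicase, had 102.9 CPM in effector memory, 17.8 CPM in central memory and 0.288 CPM in naive cells. The 6 replication genes not called in central memory against naive cells included Cdt1, with 57.3 CPM in central memory and 60.7 CPM in naive cells, chosen after its values were seen.

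Of 11 listed histone variant genes with symbols outside the Hist1h to Hist4h rule, 9 reached the minimum level. Of these 9, 6 were called higher in effector memory than in naive cells, beside 22.3% of all genes. In central memory against naive cells 6 of 9 were called higher, beside 11.2%. None was lower in either comparison, beside 15.6% of all genes in effector memory and 5.12% in central memory. Their median log2 ratios to naive cells were 1.62 in effector memory and 1.02 in central memory. Cenpa, the H3 variant of centromeres, had 200.7 CPM in effector memory, 43.5 CPM in central memory and 16.3 CPM in naive cells. H2afz, which encodes H2A.Z, had 577 CPM in effector memory, 217 CPM in central memory and 142.2 CPM in naive cells. H2A.Z takes the place of H2A at many gene starts. H2afx, the H2A variant phosphorylated at DNA breaks, had 127.3 CPM in effector memory, 77.5 CPM in central memory and 29.7 CPM in naive cells. H3f3a, one of the genes for H3.3 and added after its values were seen, was flat at 312.6 CPM in effector memory, 289.5 CPM in central memory and 297.9 CPM in naive cells.

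Of 21 histone chaperone and import genes, 10 were called higher and 1 lower in effector memory than in naive cells, beside 22.3% and 15.6% of all genes, and 2 were higher in central memory than in naive cells, beside 11.2%. Their median log2 ratios to naive cells were 0.94 in effector memory and 0.18 in central memory. Chaf1a, a subunit of the factor that places H3 and H4 on new DNA, had 151.1 CPM in effector memory, 35.4 CPM in central memory and 2.34 CPM in naive cells. Asf1b, which hands H3 and H4 to that factor, had 111.0 CPM in effector memory, 32.2 CPM in central memory and 6.47 CPM in naive cells. These were the 2 genes called higher in central memory. The 1 lower gene was Daxx, a chaperone for H3.3, with 73.4 CPM in effector memory, 97.6 CPM in central memory and 147.7 CPM in naive cells.

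Of 20 genes for histone mRNA synthesis and 3′ end processing, 19 were analysed, and 3 were called higher and 1 lower in effector memory than in naive cells, beside 22.3% and 15.6% of all genes. The list as a whole was thus not called more often than genes in general. None of 18 was called in central memory against naive cells, beside 11.2% of all genes higher and 5.12% lower. The median log2 ratios to naive cells were 0.17 in effector memory and 0.08 in central memory, near those of all genes. Slbp, the stem-loop binding protein, had 191.1 CPM in effector memory, 70.9 CPM in central memory and 42.3 CPM in naive cells, and was 4.52 times as high in effector memory as in naive cells (interval 4.24 to 4.81). Zfp473, the mouse gene for a zinc finger protein of the processing complex, had 19.5 CPM in effector memory, 3.60 CPM in central memory and 1.87 CPM in naive cells. Both act on the 3′ end of histone mRNA and were called higher in effector memory. Lsm10, a protein of the U7 particle, was 2.71 times as high in effector memory as in naive cells. Pou2f1, which encodes the octamer-binding factor Oct-1, was lower, with 39.1 CPM in effector memory, 74.8 CPM in central memory and 87.9 CPM in naive cells. Npat, the coactivator of histone gene transcription, was not called, with 54.0 CPM in effector memory, 57.8 CPM in central memory and 47.9 CPM in naive cells.

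**Figure D5:**
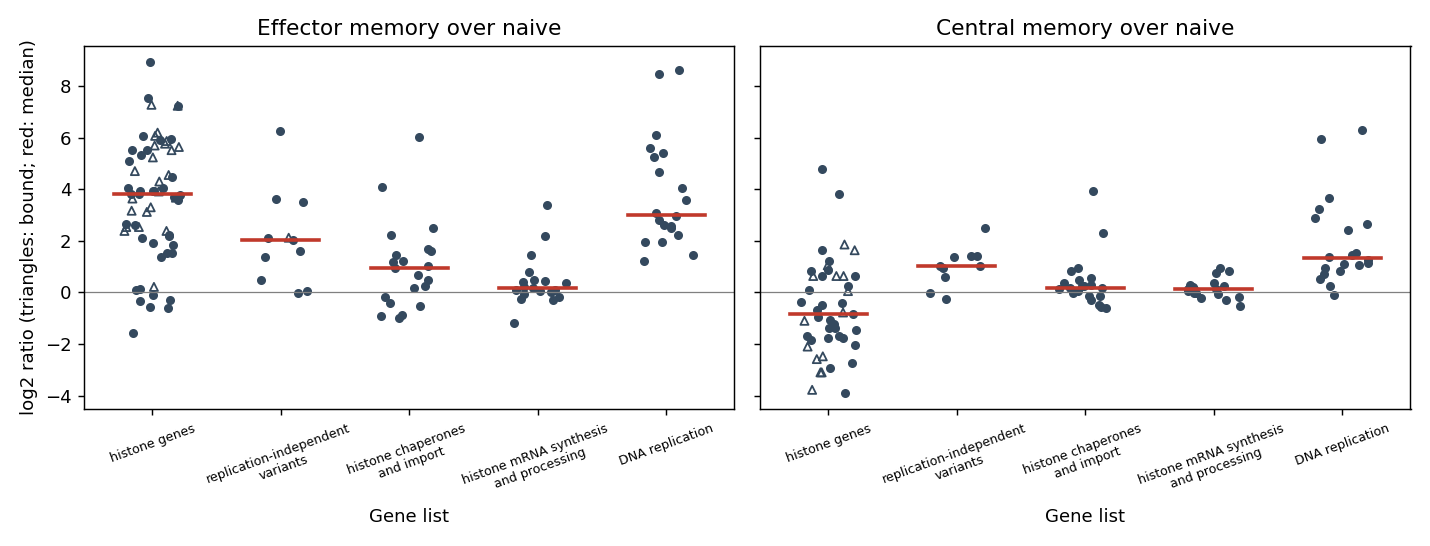
Log2 ratio to naive cells for effector memory (left) and central memory (right) of each gene in 5 lists, with triangles for ratios that are bounds and red lines for the medians over the genes with a ratio. The histone genes have a median of 3.80 on the left and -0.85 on the right, and are the single list with a median below 0 on the right.

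Markers of other cell types were low beside those of CD8+ T cells. The 7 CD8 T cell markers were detected in every library and summed to 2817 CPM in effector memory, 4237 CPM in central memory and 5511 CPM in naive cells. Cd8a was called lower in effector memory than in naive cells, at 408.2 CPM in effector memory against 1868 CPM in naive cells. General T cell and CD8 genes were thus present in each library, and markers that tell naive, central memory and effector memory cells apart were not examined here. Among B cell markers, Cd79b had 2.19 CPM in effector memory, 2.76 CPM in central memory and 14.6 CPM in naive cells, and Ms4a1 and Ebf1 were at 0 in both memory libraries. The plasma cell marker Sdc1 went the other way, with 1.31 CPM in effector memory, 0.251 CPM in central memory and 0.144 CPM in naive cells. The 9 monocyte, macrophage and dendritic cell markers summed to 37.6, 9.60 and 9.67 CPM in effector memory, central memory and naive cells. Cd68 and Xcr1 made up most of this sum in effector memory. Lyz2 and Csf1r were at 0 in effector memory, and Adgre1, Siglech and Flt3 were at 0 in all libraries. Cd14 went the other way, with 3.03 CPM in effector memory, 0.112 CPM in central memory and 0.0719 CPM in naive cells. The 6 NK cell markers summed to 92.2 CPM in effector memory, 133.9 CPM in central memory and 38.6 CPM in naive cells, and Eomes, which T cells also express, made up 79.9, 74.4 and 38.1 CPM of these sums in the same order. Klrb1c stood apart in central memory, with 1.91 CPM in effector memory, 32.97 CPM in central memory and 0.216 CPM in naive cells. Ncr1, Klra8 and Klra4 had 12.2, 3.68 and 2.71 CPM in central memory and were at 0 in both other libraries. Fcer1g had 10.4 CPM in effector memory, 7.96 CPM in central memory and 0.288 CPM in naive cells. The 3 CD4 T cell, 8 neutrophil and 9 erythroid markers summed to at most 6.40 CPM in any library. Mitochondrial genes took 3.07% of the counts in effector memory, 1.29% in central memory and 2.16% in naive cells. The part of other cells and of RNA quality in the histone values was not tested.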

How the data were processed

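The authors deposited whole-number read counts per gene symbol, 1 column per library, with 33087462 counts for effector memory, 35846315 for central memory and 26876909 for naive cells. Columns were matched to libraries by the abbreviations of the cell types. The tools listed per the submitters' processing notes are featureCounts 1.5.0-p3, HISAT2 2.0.5 and CASAVA, with mm10 as the build. How read pairs and multi-mapping reads were counted, on which strand and with which annotation, was not given in the sources used here.

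Library sizes were scaled by TMM in edgeR 4.0.16 under R 4.3.3, with factors of 0.967 for effector memory, 0.999 for central memory and 1.04 for naive cells. Ratios and exact (Clopper-Pearson) 95% counting intervals were computed over the whole table with SciPy 1.17.1 in Python 3.11.15, and were tested on simulated data. A gene was called at a ratio of at least 2, an interval excluding 1 and 5 CPM or more in the higher library. A library at 0 entered at 3 counts, which gives a bound, and no ratio was given where both libraries had 3 counts or fewer. The exact interval reaches nearer to 1 than such a bound. For Hist1h2ab in effector memory against naive cells the bound was 58.6 and the lower limit 47.2. Intervals and floors cover counting error only.

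Lengths, exon overlaps and stem-loops came from GENCODE M21 (GRCm38), and shared sequence was the percentage of 100-base windows also found in another gene. In each class the 4 histone genes with the highest CPM in any library were given with their values, other members at 5 CPM could be named, and each further list gave up to 4 called genes with the largest differences. Members, lists and rules were chosen with earlier results of these data known. Of the list of histone mRNA genes, Zfp100 was not analysed here, nor was a list of 22 non-polyadenylated RNAs, of which 0 had a row in the table. Alternatives covered scaling (upper quartile, DESeq2 1.42.0 and total counts), the minimum level, the ratio, a pseudocount, shared or overlapping genes and halved counts. One B cell marker, and the sum that includes it, is not reported here.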

Additional observations from a re-analysis of the deposited data

How the results depend on the processing

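The direction of each summed ratio was the same under all alternatives run. Shares of all genes called were taken only for the main rule and with no minimum level. The other counts of called genes below have no such share beside them. In effector memory against naive cells the 27 genes called higher became 47 with a minimum of 1 CPM, 2 with a minimum of 20 CPM and 53 with no minimum, also with counts halved. The 1 lower gene became 0 with a minimum of 20 CPM or a ratio of 4. The log2 summed ratio of 2.50 became 2.40 with total counts, 2.39 with upper quartile factors, 3.10 without Hist1h1c, the gene with the most counts, 3.81 without Hist1h1c and Hist2h2be, 2.21 over genes with under 50% of windows shared, 2.21 over genes with no exon overlap and 5.02 over short 3′ end models, and the median of the genes' log2 ratios was 3.80.

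In effector memory against central memory the 28 genes called higher became 48 at 1 CPM, 3 at 20 CPM, 56 with no minimum and 55 with no minimum and halved counts, and the 1 lower gene became 0 at 20 CPM or a ratio of 4. The log2 summed ratio of 3.58 became 3.82 over genes at 5 CPM, 4.34 without both genes, 3.35 with under 50% of windows shared, 3.33 without exon overlap and 5.37 over short models, and the median was 4.12.

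In central memory against naive cells the 0 higher genes became 2 at 1 CPM, 5 with no minimum and 2 with no minimum and halved counts, and the 1 lower gene became 6, 16 and 12 in the same order. The log2 summed ratio of -1.09 became -1.21 with upper quartile factors, -0.47 without Hist1h1c, -1.31 over genes at 5 CPM, -0.52 without both genes and -0.35 over short models, and the median was -0.85. DESeq2 size factors moved every gene by -0.11 on the log2 scale in this comparison, and upper quartile factors by -0.12. Fewer genes tested account for the lower counts at 20 CPM; the cause of the other changes was not tested.

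No paired analysis was possible because each group has 1 library, and leaving out a replicate could not be done for the same reason. Low histone counts limit the precision of the ratios in central memory and naive cells, although central memory is the deepest library.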
